A study of Mus musculus with 36 samples.

Results

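The DNA replication genes were followed across the CD4+ T cell libraries of the study. They are 44 genes that encode the proteins that license replication origins, unwind and copy DNA, supply nucleotides and reassemble chromatin behind the fork. They were chosen by their known function, with earlier results of these data known. Each of the 44 was found once by its symbol among the 56748 genes of the table. A count was present in every library for 43 of them, the exception being Mcm10, and 44 of 44 passed the filter on low counts in each comparison, except between genotypes of naive cells, where 43 did.

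The cells came from 2 mouse lines on a mixed 129/Sv and C57BL/6 background, aged 6 to 12 weeks. In the HP1a line the floxed gene of heterochromatin protein HP1α, Cbx5, had been excised in the germ line by CMV-cre, so that every cell of a knockout (KO) mouse carries the deletion, and wild-type (WT) littermates were the controls. In the HP1g line the floxed gene of HP1γ, Cbx3, was excised by Cd4-cre, which is active from T cell development onwards, and littermates with the floxed gene but without cre, labelled WT, were the controls. Each line and genotype was sampled in 3 conditions. Naive cells were splenic CD4+ T cells taken untouched by negative selection. Tconv were conventional T cells recovered 3 weeks after naive CD4+ T cells had been given to lethally irradiated C57BL/6 hosts together with C57BL/6 and semi-allogeneic B6D2F1 bone marrow, and sorted for the T cell receptor chain Vβ6. Tconv with Treg came from hosts that had also received WT regulatory T cells (Treg) expanded ex vivo. This gives 12 groups with 3 replicates each, of which replicate 3 of HP1g KO Tconv with Treg is left out, so that 35 libraries are used and that group has 2.

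Before a cell divides, the origin recognition complex with Cdc6 and Cdt1 loads the ring-shaped MCM helicase onto DNA in the G1 phase. At the start of S phase, Mcm10, Cdc45 and the GINS complex turn this ring into an active helicase, after which primase and the polymerases copy both strands on the clamp PCNA. Much of this machinery is transcribed under the control of E2F factors, which are held back in resting cells. Naive T cells rest in G0, and T cells that have recognised antigen divide rapidly, so that replication genes are a common readout of their proliferation. In RNA from bulk cells, however, fewer cells in S phase and less RNA of a gene per cell cannot be told apart.

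The 35 libraries held 37029519 to 63042245 estimated counts, and the floor of 3 counts corresponds to between 0.0476 and 0.081 counts-per-million (CPM). Levels are CPM after TMM normalisation, given for replicates 1, 2 and 3 in that order, and ± is the standard error (SE) of a log2 fold change. The labels do not say whether replicates came from separate animals, so that p-values measure the spread between libraries. Cbx5 was lower in every HP1a KO library than in each WT library of its condition, and Cbx3 in every HP1g KO library, although neither reached 0. The log2 fold changes of Cbx5 were −1.03 ± 0.17 in naive cells, −0.89 ± 0.11 in Tconv and −1.42 ± 0.25 in Tconv with Treg, and those of Cbx3 −0.95 ± 0.23, −0.43 ± 0.11 and −0.53 ± 0.15. Only that of Cbx5 in Tconv passed the adjusted p (edgeR, 0.0331). The summed level of 8 T cell markers was 5276 to 8718 CPM in all libraries, and that of 10 B cell markers did not exceed 11.5 CPM. Transcripts of 10 erythroid markers summed to 2557 to 5042 CPM in 4 libraries, replicate 1 of all 4 HP1g groups of grafted cells, against at most 613 CPM in the others. Counts of calls and some medians that rest on these 4 libraries are given with and without them. Most values of single genes in grafted cells of the HP1g line include them.

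**Figure D1:**
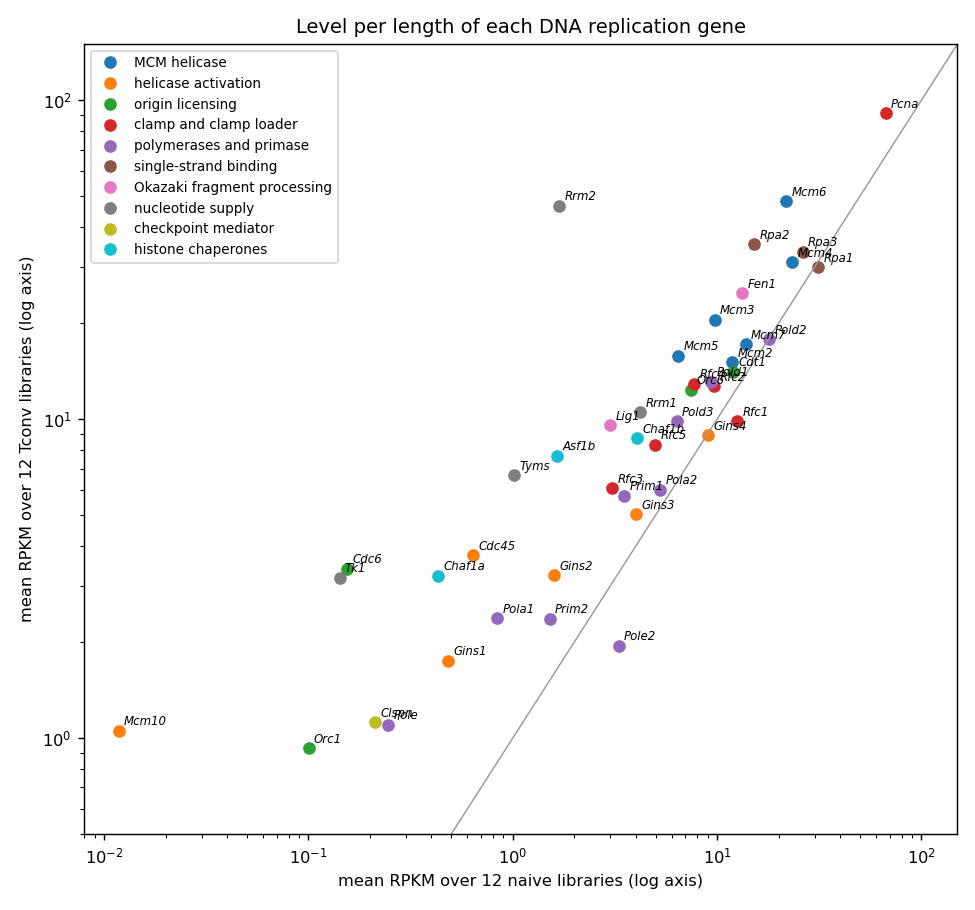
Mean level per length of each of the 44 genes in naive cells (horizontal axis) and in Tconv (vertical axis), in RPKM on log axes, with colours for the roles of the genes and a grey line where both are equal. Rrm2 lies farthest above the line among the genes with at least 1 RPKM in naive cells, and Rfc1 and Pole2 are the clearest of the genes below it.

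Levels per length show how unevenly resting cells hold this machinery. In RPKM, that is CPM divided by the summed exon length of the gene in kilobases, the mean over the 12 naive libraries ranged from 0.0118 for Mcm10 to 66.7 for Pcna. After Pcna the highest in naive cells were Rpa1 at 31.3 RPKM, Rpa3 at 26.2 and Mcm4 at 23.3, which bind single-stranded DNA (Rpa1, Rpa3) or form part of the helicase ring (Mcm4). At the other end stood the origin factors Orc1 at 0.10 RPKM and Cdc6 at 0.155, the thymidine kinase Tk1 at 0.142 and the checkpoint mediator Clspn at 0.211. Over the 12 Tconv libraries the range was 0.931 RPKM for Orc1 to 90.9 for Pcna. Rrm2 stood 30th of 44 in naive cells with 1.69 RPKM and the third in Tconv with 46.7 RPKM.

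To find which replication genes differ between resting cells and cells responding to alloantigen, Tconv were compared with naive cells in each line and genotype. Calls required an adjusted p under 0.05 together with a log2 fold change above 1 or below −1. In the HP1a line 17 members were called higher and 1 lower in WT Tconv, against 12.9% and 10.2% of the 16027 genes tested. In HP1a KO Tconv 15 were called higher and 0 lower, with 12.4% and 7.24% of all genes. In the HP1g line 19 members were called higher in WT (15.0% of all genes) and 23 in KO (15.7%), and none was called lower in either by edgeR (8.55% and 7.30% of all genes). Without the erythroid-rich libraries, which here are Tconv replicate 1 of each genotype, 20 members were called in HP1g WT and 31 in HP1g KO. The count of HP1g KO was 15 with no filter on low counts, 18 with the replicate block and 16 to 18 with any library but Tconv replicate 1 left out. Without the threshold on the fold change, 32 members rose and 2 fell in HP1a WT (24.3% and 21.4% of all genes), 32 rose and 1 fell in HP1a KO (22.9% and 17.8%), 24 rose and 1 fell in HP1g WT (18.3% and 13.2%), and 30 rose and 0 fell in HP1g KO (23.4% and 17.7%). The shares of members called higher lay above those of all genes in each comparison. The members were chosen with earlier results of these data known, so that this excess is a description only. The median log2 fold change of the members was 0.84, 0.76, 0.85 and 1.37 in HP1a WT, HP1a KO, HP1g WT and HP1g KO, where that of all genes tested lay between −0.04 and 0.02. The naive cells were not sorted for Vβ6 and came directly from the donor mice, so that activation, transfer and sort cannot be told apart in these comparisons.

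The calls fell on a part of the list. Called higher in all 4 comparisons were 11 members, namely Mcm10, Tk1, Rrm2, Cdc6, Orc1, Chaf1a, Clspn, Tyms, Asf1b, Cdc45 and Pola1, while 18 were called higher in none. The shares of all genes called higher in all 4 or in none were not computed, so that these counts are a description only. Of these 11, Mcm10, Orc1, Tk1, Cdc6 and Clspn were the 5 members with the lowest level per length in naive cells. Mcm2, Mcm7, Rpa1 and Pold2 did not pass the adjusted p in any of the 4 comparisons, even without a threshold on the fold change.

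**Figure D2:**
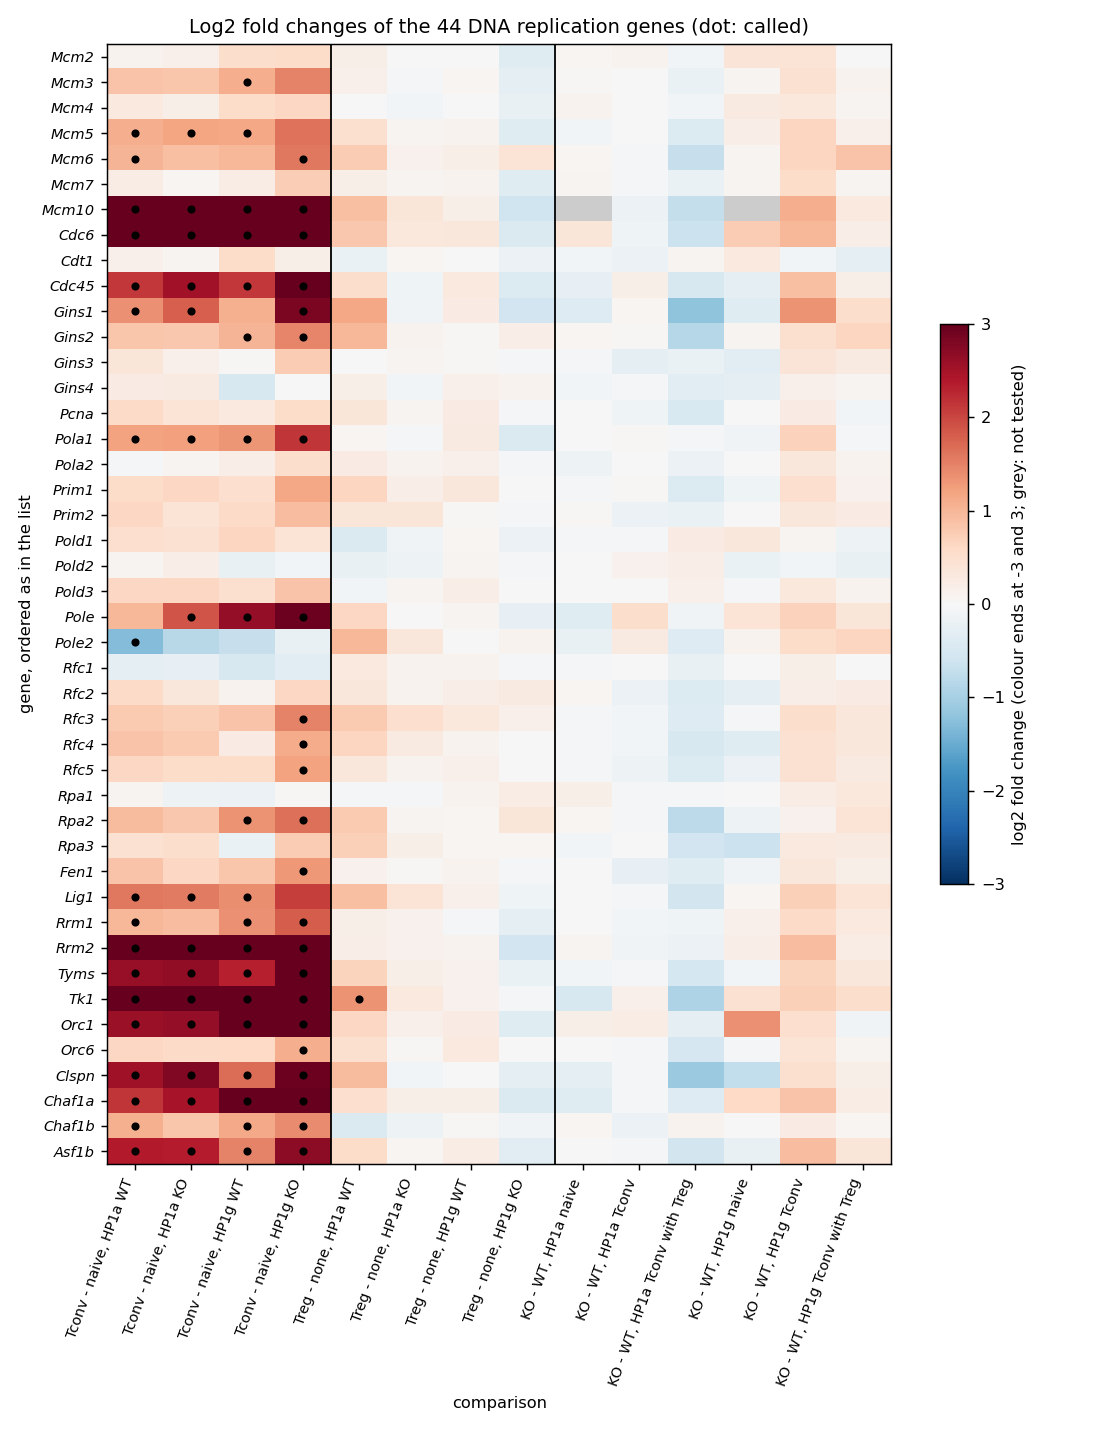
Log2 fold changes of the 44 genes (rows) in 14 comparisons (columns), coloured from −3 (blue) to 3 (red), with a dot where a gene was called and grey where it was not tested. The dots fall on the Tconv against naive columns, with Tk1 in HP1a WT as the only exception among these 14 comparisons.

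Since members differed in their fold changes, the sequence upstream of their start sites was searched for motifs known from cell cycle promoters. The window was the 200 bases before the start of the Ensembl canonical transcript in the GENCODE annotation of GRCm39, the build to which the reads were aligned. An E2F motif of 8 letters (TTTCCCGC, TTTCGCGC, TTTGCCGC or TTTGGCGC on either strand) was found in 4 of 44 windows, or 9.09%, and in 1.93% of the windows of 21630 protein-coding genes. A core of 7 letters, which is each of these without its first T, was searched after the longer motif and so overlaps it. It was found in 7 of 44 (15.9%, against 7.73% of all). CCAAT, the box bound by NF-Y, was in 23 of 44 (52.3%, against 32.3%), and TTTGAA, the CHR element, in 2 (4.55%, against 11.9%). The sequences of 5 windows are printed, 5′ to 3′ on the strand of the gene, with the E2F core and CCAAT matches of either strand in capitals, to show members with matches that were called in most comparisons (Mcm5, Pola1, Rrm2), a member of the helicase ring with matches that was called in none (Mcm4), and the member called lower (Pole2), which holds no match. They are chr8:75835940-75836139 on the plus strand for Mcm5, chrX:92675814-92676013 on the minus strand for Pola1, chr12:24757611-24757810 on the plus strand for Rrm2, chr16:15455265-15455464 on the minus strand for Mcm4 and chr12:69274970-69275169 on the minus strand for Pole2.
Mcm5: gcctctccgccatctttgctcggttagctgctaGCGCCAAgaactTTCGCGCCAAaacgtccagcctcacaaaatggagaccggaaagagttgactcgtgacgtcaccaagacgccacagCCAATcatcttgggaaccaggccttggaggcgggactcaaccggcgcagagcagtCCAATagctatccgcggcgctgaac
Pola1: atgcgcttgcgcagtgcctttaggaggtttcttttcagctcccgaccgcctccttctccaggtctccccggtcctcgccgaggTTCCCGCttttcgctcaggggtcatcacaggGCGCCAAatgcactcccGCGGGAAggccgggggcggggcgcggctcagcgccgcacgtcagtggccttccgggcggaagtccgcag
Rrm2: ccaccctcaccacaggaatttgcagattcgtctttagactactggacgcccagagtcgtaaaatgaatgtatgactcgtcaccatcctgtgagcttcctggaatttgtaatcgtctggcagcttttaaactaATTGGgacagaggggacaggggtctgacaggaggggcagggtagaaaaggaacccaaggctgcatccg
Mcm4: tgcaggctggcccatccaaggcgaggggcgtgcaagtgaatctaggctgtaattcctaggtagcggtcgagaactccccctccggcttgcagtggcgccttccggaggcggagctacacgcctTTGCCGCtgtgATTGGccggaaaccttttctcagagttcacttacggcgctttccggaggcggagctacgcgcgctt
Pole2: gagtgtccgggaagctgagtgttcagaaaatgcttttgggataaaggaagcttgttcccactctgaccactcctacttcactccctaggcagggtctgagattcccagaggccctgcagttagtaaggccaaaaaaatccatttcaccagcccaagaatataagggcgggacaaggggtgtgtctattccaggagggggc

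The Mcm5 and Pola1 windows each hold 3 E2F core matches, of which a pair overlaps in Mcm5 and none in Pola1. Among the 11 members called higher in all 4 comparisons, 2 had an E2F core match and 7 a CCAAT box, and among the 33 others these numbers were 5 and 16. A match shows only that the letters are present and not that a factor binds there.

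Of the 4 genes that supply deoxynucleotides, Rrm2, Tyms and Tk1 were called higher in all 4 comparisons and Rrm1 in 3. Rrm2 encodes the small, cell cycle-regulated subunit of ribonucleotide reductase. It was at 6.03, 4.31 and 4.66 CPM in HP1a WT naive cells and at 83.9, 179 and 100.1 CPM in Tconv, a log2 fold change of 4.60 ± 0.33 (adjusted p = 4.34e-05, by the quasi-likelihood test of edgeR with Benjamini-Hochberg adjustment). In HP1g WT cells it was at 5.25, 6.86 and 4.87 CPM before and 78.3, 97.6 and 226 CPM after transfer (4.56 ± 0.44, adjusted p = 0.00021 by the same edgeR test). All Tconv libraries of both lines and genotypes lay above all naive libraries, the lowest Tconv library being HP1g KO replicate 1 with 42.2 CPM and the highest naive library having 7.36 CPM. Rrm1, the large subunit of the same enzyme, was already at 45.3, 49.3 and 50.5 CPM in HP1a WT naive cells and at 86.6, 121 and 81.2 CPM in Tconv, with a log2 fold change of 1.0 ± 0.15. Thymidylate synthase Tyms, which makes dTMP, and thymidine kinase Tk1, which salvages thymidine, followed Rrm2 in this. Their log2 fold changes in HP1a WT, HP1a KO, HP1g WT and HP1g KO were 2.62, 2.66, 2.34 and 3.15 for Tyms and 3.53, 4.18, 4.99 and 5.28 for Tk1.

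Among the licensing factors, Cdc6 and Orc1 differed widely and Cdt1 little. Cdc6, the ATPase that helps to load the MCM ring, was at 1.05, 0.384 and 0.980 CPM in HP1a WT naive cells and at 10.7, 19.2 and 9.1 CPM in Tconv (4.01 ± 0.45 on the log2 scale, edgeR adjusted p = 0.000215). In HP1g WT the values were 0.644, 0.543 and 0.550 CPM in naive cells and 8.2, 12 and 30.0 CPM in Tconv (4.85 ± 0.54, edgeR adjusted p = 0.000407). The groups did not overlap in any of the 4 comparisons. In each comparison 27.4% to 29.9% of all genes were higher in Tconv without overlap. Orc1, the largest subunit of the origin recognition complex, was called in all 4, at log2 fold changes of 2.60, 2.63, 4.19 and 3.36, but naive libraries held only 0.163 to 1.24 CPM. Cdt1, the partner of Cdc6, was at 49.3, 27.7 and 31.9 CPM in HP1a WT naive cells and at 36.8, 43.9 and 39.7 CPM in Tconv, so that the groups overlapped. Its log2 fold changes of 0.15, 0.07, 0.54 and 0.18 passed the adjusted p only in HP1g WT (edgeR, 0.0242). Orc6 was called once, in HP1g KO, at 1.10.

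The factors that activate the helicase were also unevenly called. Mcm10 had 0 to 0.208 CPM in the 12 naive libraries and 1.94 to 28.3 CPM in the 12 Tconv libraries. It was called in all 4 comparisons with the largest log2 fold changes of the members, 5.66, 5.83, 6.79 and 7.19, which start from naive levels near the floor. Cdc45, which joins MCM and GINS in the active helicase, was at 3.18, 3.18 and 2.61 CPM in HP1a WT naive cells and at 9.82, 18.2 and 10.5 CPM in Tconv, and was called in all 4 comparisons at 2.11, 2.52, 2.11 and 3.33. The GINS complex has the subunits encoded by Gins1 to Gins4. Their log2 fold changes in HP1a WT were 1.37 ± 0.33 for Gins1, 0.83 ± 0.21 for Gins2, 0.37 ± 0.22 for Gins3 and 0.25 ± 0.09 for Gins4, and the adjusted p of edgeR was under 0.05 for Gins1 and Gins2 alone. In HP1g KO these values were 2.82, 1.46, 0.77 and 0.00, so that in both groups Gins1 had the largest and Gins4 the smallest value of the complex.

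The MCM ring consists of the products of Mcm2 to Mcm7, and these were abundant in naive cells. Mcm5 was at 46.6, 39.1 and 39.3 CPM in HP1a WT naive cells and at 75.3, 119.5 and 69.3 CPM in Tconv (1.09 ± 0.20, edgeR adjusted p = 0.00295), and at 47.6, 34.9 and 51.1 CPM and 69.2, 80.5 and 151 CPM in HP1g WT (1.17 ± 0.31, adjusted p = 0.0233 by edgeR). It was called in 3 of the 4 comparisons, and not in HP1g KO, where replicate 1 of Tconv stayed at 41.9 CPM and the naive libraries were at 50.1, 56.8 and 45.8 CPM. Mcm6 was called in 2 comparisons and Mcm3 in 1. Mcm2, Mcm4 and Mcm7 were called in none, with log2 fold changes of 0.11, 0.16, 0.52 and 0.55 for Mcm2, 0.29, 0.17, 0.55 and 0.62 for Mcm4 and 0.22, 0.07, 0.23 and 0.73 for Mcm7. Mcm7, for example, was at 74.1, 78.7 and 75.7 CPM in HP1a WT naive cells and at 75.8, 113 and 75.3 CPM in Tconv. Without HP1g KO Tconv replicate 1, Mcm5 was called in HP1g KO as well, at a log2 fold change of 2.08. Its call in HP1g WT was lost without naive replicate 1 or 2 or Tconv replicate 3, at 1.21, 1.03 and 0.75, and in the fit over all libraries of the line. In the HP1a line it fell short of the fold threshold without Tconv replicate 2, at 0.81 in WT and 0.97 in KO.

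Subunits of the same polymerase differed in direction. Pole, the catalytic subunit of the leading-strand polymerase ε, was at 2.7, 1.07 and 2.59 CPM in HP1g WT naive cells and at 9.95, 10.7 and 18.8 CPM in Tconv, and was called higher in 3 of 4 comparisons at 1.88, 2.63 and 2.94. In HP1a WT it missed the adjusted p (edgeR, 0.0574) at 1.0 ± 0.37. Pole2, an accessory subunit of the same polymerase, was at 13.4, 15.3 and 17.3 CPM in HP1a WT naive cells and at 4.95, 8.09 and 5.45 CPM in Tconv. It was the only member called lower in any of these comparisons (−1.30 ± 0.23, edgeR adjusted p = 0.00189), and in HP1a KO it passed the adjusted p without the fold threshold at −0.82 ± 0.16 (edgeR, 0.00554). In the HP1g line its values of −0.68 ± 0.24 in WT and −0.22 ± 0.37 in KO did not pass. Pola1, the catalytic subunit of polymerase α, which extends the primers, was called higher in all 4 comparisons at 1.21, 1.23, 1.32 and 2.15, while its partner Pola2 had −0.04, 0.09, 0.19 and 0.54. The primase genes Prim1 and Prim2 and the polymerase δ genes Pold1, Pold2 and Pold3 were never called, and Pold3 passed the adjusted p alone in all 4.

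The sliding clamp and its loader differed less. Pcna was at 199, 101 and 105 CPM in HP1a WT naive cells and at 189, 231 and 179.6 CPM in Tconv, a log2 fold change of 0.57 ± 0.27 (edgeR adjusted p = 0.125). Replicate 1 of the naive cells lay within the range of Tconv. In HP1a KO naive cells replicate 1 was also well above the others, with 201, 104 and 105 CPM. The clamp loader RFC has a large subunit, Rfc1, and small subunits Rfc2 to Rfc5. Rfc1 was at 84.6, 77.5 and 81.1 CPM in HP1a WT naive cells and at 66.4, 70.9 and 62.8 CPM in Tconv, and in HP1g WT at 87.7, 85.2 and 95.6 CPM and 66.2, 59.2 and 66.2 CPM. All Tconv libraries lay below all naive libraries of their line and genotype, in each of the 4 comparisons. Per comparison this held for 24.7% to 28.0% of all genes. The adjusted p of Rfc1 was under 0.05 in HP1a WT (−0.27 ± 0.09, edgeR adjusted p = 0.0321) and HP1g WT (−0.49 ± 0.14, 0.0305). The small subunit Rfc4 had 0.85, 0.79, 0.25 and 1.12, and was called in HP1g KO (edgeR adjusted p = 0.0378). This call was kept in 5 of 12 alternatives, with values down to 0.88 and edgeR adjusted p up to 0.152 (no filter on low counts). The fit without the erythroid-rich libraries and that without Tconv replicate 1 are the same here, and both count among the 5. Among the 6 fits with a library left out it was kept only in that without Tconv replicate 1. Rfc3 and Rfc5 were called in that comparison too. In HP1a KO the 10 genes taken to represent the roles, Cdc6, Mcm5, Cdc45, Gins2, Pcna, Rfc4, Pola1, Lig1, Rrm2 and Tyms, had log2 fold changes of 3.53, 1.18, 2.52, 0.81, 0.42, 0.79, 1.23, 1.55, 4.43 and 2.66, and in HP1g KO 5.11, 1.64, 3.33, 1.46, 0.56, 1.12, 2.15, 2.08, 5.32 and 3.15.

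**Figure D3:**
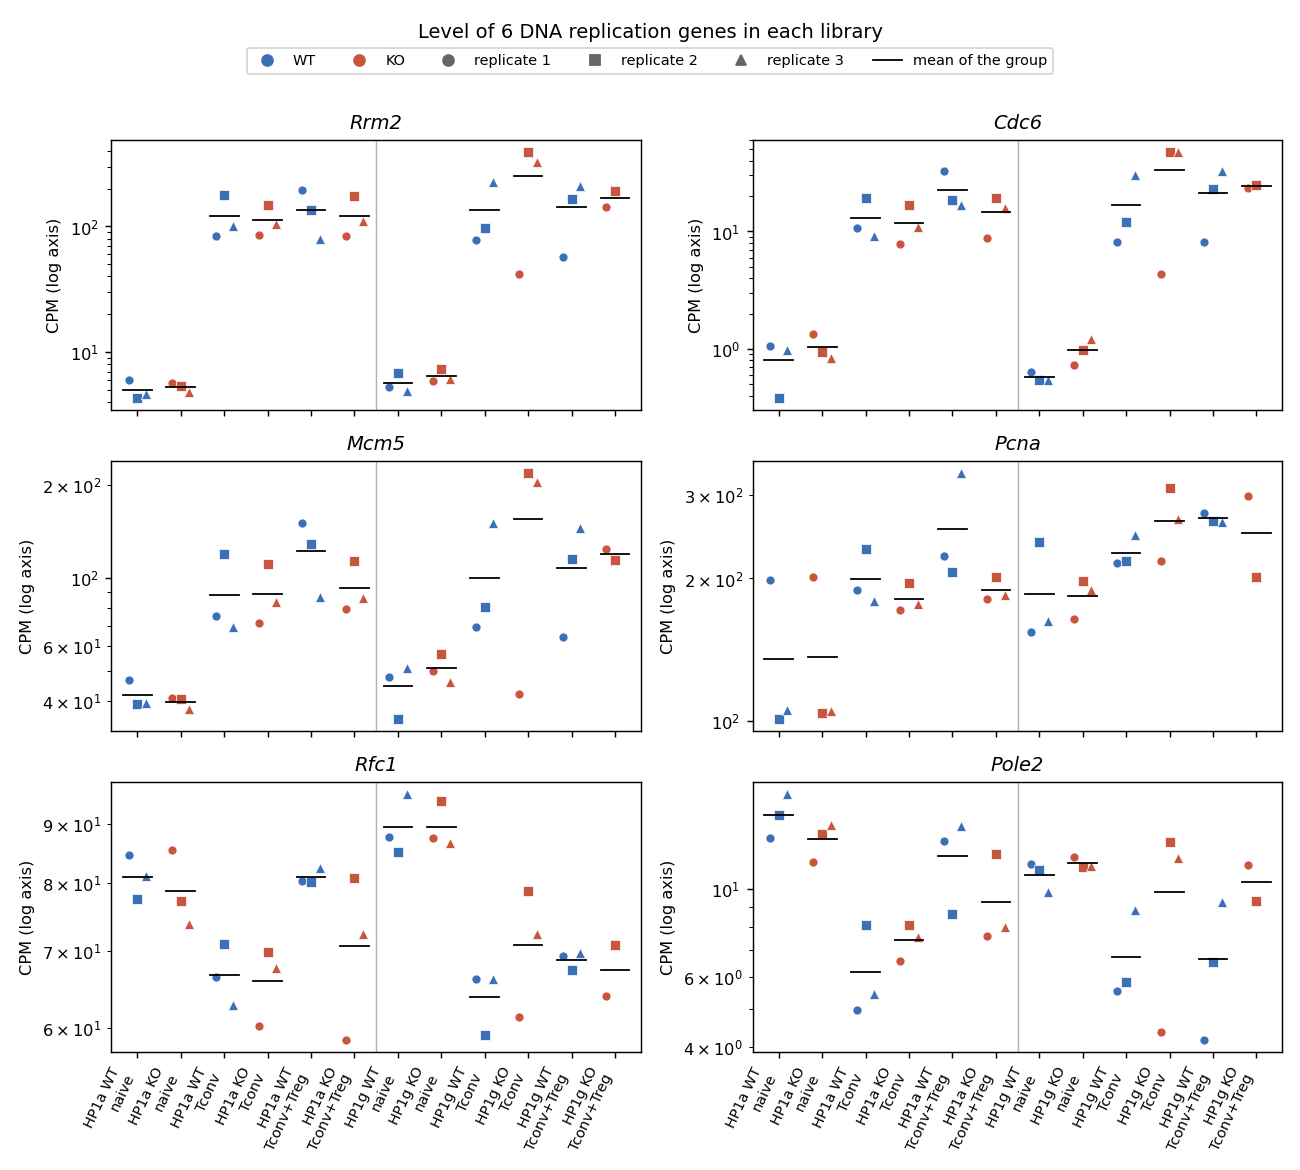
CPM on log axes of 6 members in each of the 35 libraries, by group, with WT in blue, KO in red, a symbol for each replicate number and a bar at the mean of the group. Rrm2, Cdc6 and Mcm5 are higher in most libraries of grafted cells than in naive cells, Rfc1 is lower in Tconv, and Pcna in HP1a naive cells is high in replicate 1 of both genotypes.

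Of the RPA subunits, which coat single-stranded DNA, Rpa1 was at 224, 223 and 247 CPM in HP1a WT naive cells and 225, 258 and 243 CPM in Tconv, and it passed the adjusted p in none of the 4 comparisons. Rpa2 was called in both genotypes of the HP1g line, at 1.34 and 1.66, and passed the adjusted p in all 4 comparisons. Lig1, the ligase that joins Okazaki fragments, was at 15.1, 10.5 and 10.1 CPM in HP1a WT naive cells and at 29.6, 48.6 and 27.7 CPM in Tconv (1.58 ± 0.26, edgeR adjusted p = 0.00146) and was called in 3 comparisons. Its value of 2.08 ± 0.69 in HP1g KO missed the adjusted p (edgeR, 0.0596) and was called without Tconv replicate 1. Fen1, the flap nuclease that trims these fragments, passed the adjusted p in all 4 comparisons and was called in HP1g KO. The histone chaperone genes Chaf1a and Asf1b, which place histones on new DNA, were called in all 4, at 2.14, 2.47, 3.29 and 3.57 for Chaf1a and 2.38, 2.35, 1.49 and 2.67 for Asf1b. Chaf1b, the partner of Chaf1a in chromatin assembly factor CAF-1, was called in 3, at 1.06, 1.14 and 1.43, and passed the adjusted p alone in HP1a KO at 0.84.

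Other genes of the pathway, which are not members, were less uniform. Of 35 further replication genes, 8 were called higher (12.9% of all genes) and 1 lower (10.2%) in HP1a WT Tconv, with a median log2 fold change of 0.24. In HP1g KO 15 of them were called higher (15.7% of all genes) and 0 lower (7.30%), with a median of 0.52. Among them Uhrf1, which guides DNA methylation to new DNA, Dna2, a nuclease, Ticrr, which helps to fire origins, and Gmnn, the inhibitor of Cdt1, were called higher in all 4. Timeless, a fork protection factor, was called lower in HP1a WT and KO at −1.28 and −1.25. Of 25 regulators of the G1/S transition 12 were called higher in HP1a WT (12.9% of all genes) and 13 in HP1g WT (15.0%). Those called higher included E2f1 at 2.90 and 2.41 and the cyclin gene Ccna2 at 5.56 and 6.76. Calls of a lower level are not given for this list. All 15 genes of mitosis were called higher in each of the 4 comparisons, with medians of 5.25, 5.66, 6.10 and 6.87.

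Summed over the 44 members, the level was 1595 to 1939.8 CPM in the 12 naive libraries, 2016 to 4788 CPM in the 12 Tconv libraries and 2305 to 3826 CPM in the 11 libraries of Tconv with Treg. The naive libraries thus lay below all libraries of grafted cells and spread far less among themselves. Within groups of grafted cells the libraries differed as wholes. In HP1g KO Tconv the sums were 2016, 4788 and 4458 CPM, and replicate 1 was the lowest of the 3 for 43 of 44 members, the exception being Cdt1. The mitosis genes followed, with 239, 1922 and 1686 CPM, and erythroid markers were at 2557, 170.0 and 297 CPM. In HP1g WT Tconv the sums were 2328, 2476 and 3569 CPM for the members and 3825, 109 and 207 CPM for the erythroid markers. Replicate 1 was thus low in replication genes and high in erythroid transcripts in both groups. With Treg this held in HP1g WT, with member sums of 2472, 3193 and 3427 CPM and erythroid sums of 2691, 195 and 162 CPM. It did not hold in HP1g KO, where replicate 1 was the higher of the 2 libraries in both, with member sums of 3784 and 3303 CPM and erythroid sums of 5042 and 121 CPM. The part of the erythroid transcripts in these differences was not tested.

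**Figure D4:**
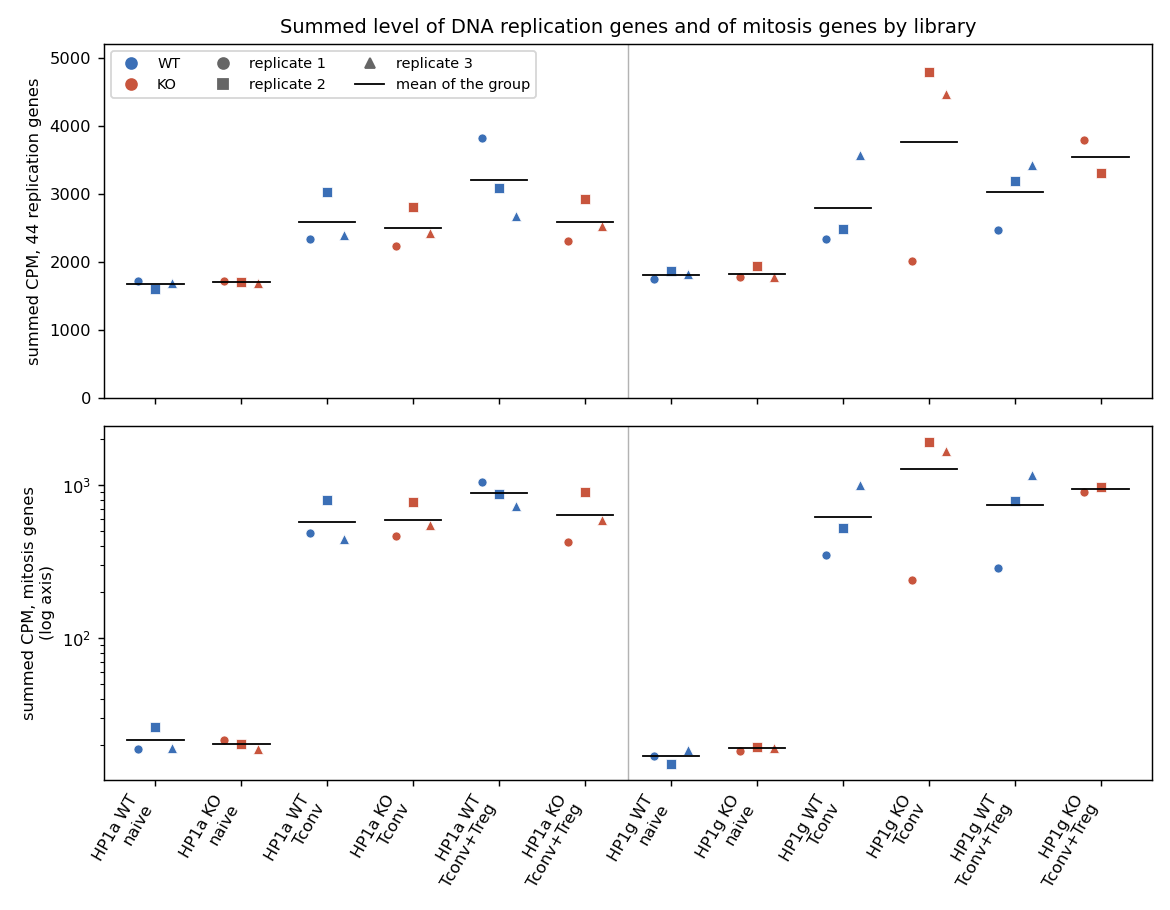
Summed CPM of the 44 replication genes (top, linear axis from 0) and of 15 mitosis genes (bottom, log axis) in each library, by group, with WT in blue, KO in red, a symbol for each replicate number and a bar at the mean of the group. Naive libraries lie close together, and HP1g KO Tconv replicate 1 lies far below replicates 2 and 3 in both panels.

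To see whether replication genes differ in cells recovered with Treg, Tconv with Treg were compared with Tconv. The paper states that Treg did not effectively repress the response of WT cells at the ratio used in the HP1g experiment. In HP1a WT 1 member was called higher and 0 lower, against 3.54% and 2.43% of 15627 genes. This was Tk1, at 12, 23 and 12 CPM in Tconv and 41.5, 36.8 and 40.6 CPM with Treg (1.36 ± 0.28, edgeR adjusted p = 0.029). All 3 libraries with Treg lay above those without, which held for 16.4% of all genes. The helicase gene Gins2 and the clamp loader gene Rfc3 passed the adjusted p without the fold threshold, at 0.99 ± 0.22 (edgeR, 0.0384) and 0.79 ± 0.19 (0.0452), as did 4.08% of all genes in this direction. At an unadjusted p under 0.05, 15 members were higher and 0 lower, against 12.2% and 10.3% of all genes, and 36 of 44 had a positive log2 fold change (52.6% of all genes). The median was 0.42, against 0.03 for all genes. Myeloid markers summed to 8.63, 7.61 and 7.01 CPM in these Tconv and to 26.6, 24.7 and 59.5 CPM with Treg, and T cell markers to 7165, 7341 and 7597 CPM and 7838, 8201 and 8058 CPM. Both were higher with Treg without overlap, and their part in the result was not tested. The call of Tk1 was lost without Tconv replicate 1 or 3 or without Tconv with Treg replicate 1 or 2, at log2 fold changes of 1.18 to 1.40.

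The representative genes of each role show how uneven this difference was. In HP1a WT with Treg, Rrm2 was at 195, 135 and 79.4 CPM and Mcm5 at 150.4, 129 and 87.1 CPM, and the log2 fold changes against Tconv were 0.19 ± 0.38 and 0.49 ± 0.27. For Cdc6 this value was 0.81 ± 0.37, for Cdc45 0.52 ± 0.43, for Pcna 0.37 ± 0.22, for Rfc4 0.65 ± 0.20, for Pola1 0.05 ± 0.27, for Lig1 0.90 ± 0.24 and for Tyms 0.66 ± 0.19, and none of these 9 passed the adjusted p. Replicate 3 of this group stood apart from the others. All 6 genes of the MCM ring were lowest in it, for example Mcm2 at 139, 126 and 55.2 CPM and Mcm3 at 181, 129 and 56.7 CPM, whereas Pcna at 223, 206 and 334 CPM and Rpa3 at 50.9, 46.1 and 88.2 CPM were highest in it. Replicate 2 of HP1g WT naive cells was also the lowest of its group for all 6 MCM genes and the highest for Pcna and Rpa3, with Mcm2 at 92.9, 61.2 and 99 CPM and Rpa3 at 28.3, 65 and 26.9 CPM. In all, 13 members were lowest and 7 highest of their group in both of these libraries, while 6 were lowest in the former and highest in the latter and 2 the reverse. Without replicate 3 the median of the Treg effect in HP1a WT was 0.50 and Tk1 was still the only member called.

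Among the further genes, Cdkn2c, an inhibitor of the G1 kinases, was called higher with Treg in HP1a WT (1.60 ± 0.19, edgeR adjusted p = 0.00448). Ccnd3, encoding cyclin D3, and Myc, a growth regulator, were called lower (−1.36 ± 0.15, edgeR adjusted p = 0.00348, and −1.53 ± 0.29, 0.0211). No gene of mitosis and none of the 35 further replication genes was called there, with medians of 0.60 and 0.20. In the other comparisons of Treg within a group and of genotypes no gene of these 3 lists was called by edgeR.

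In the other groups no member was called for the Treg effect. In HP1a KO 0 members were called by edgeR in either direction (0.180% of all genes higher and 0.260% lower), 1, the clamp loader gene Rfc3, had an unadjusted p under 0.05 (7.79% of all genes higher and 8.03% lower), and DESeq2 called 0. The median was 0.09, and Tk1 was at 15.9, 19.8 and 16.5 CPM in Tconv and 16.8, 27.3 and 19.1 CPM with Treg. In HP1g WT 0 members were called by edgeR (0.00629% of all genes in each direction), 2, Orc6 and Pcna, had an unadjusted p under 0.05 (2.83% of all genes higher and 4.06% lower), and DESeq2 called 0. The median was 0.11, and 0.14 without the erythroid-rich libraries. In HP1a KO the values ran from −0.15 for Pold2 to 0.50 for Rfc3. In HP1g WT, Prim1 had the highest log2 fold change at 0.35 ± 0.26 and Rrm1 the lowest at −0.03 ± 0.30. In HP1g KO, with 2 libraries with Treg, 0 members were called by edgeR (0.00% of all genes) and 0 by DESeq2. At an unadjusted p under 0.05 there were 0 members (4.71% of all genes higher and 2.91% lower). The values of HP1g KO ran from −0.60 ± 0.99 for Mcm10 to 0.41 ± 0.47 for Mcm6. Its median of −0.09 was 0.24 with the replicate as a block and −0.47 without the erythroid-rich libraries, so that its sign depended on the setting. The 10 representatives, Cdc6, Mcm5, Cdc45, Gins2, Pcna, Rfc4, Pola1, Lig1, Rrm2 and Tyms, had log2 fold changes with Treg of 0.32, 0.08, −0.12, 0.11, 0.07, 0.28, −0.03, 0.42, 0.13 and 0.18 in HP1a KO. In HP1g WT they had, in the same order, 0.35, 0.11, 0.30, 0.03, 0.24, 0.10, 0.26, 0.15, 0.10 and 0.12, and in HP1g KO −0.43, −0.36, −0.40, 0.20, −0.07, 0.00, −0.43, −0.14, −0.57 and −0.19.

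To learn whether HP1 proteins set the level of replication genes, KO cells were compared with WT cells of the same line and condition. In naive cells none was called by edgeR in either line. In the HP1a line 0 members had an unadjusted p under 0.05 (1.04% of all genes higher and 0.830% lower). DESeq2 called 0 (0.00% of all genes called in either direction by edgeR), and the median was −0.02 over 43 members. Rrm2 was at 6.03, 4.31 and 4.66 CPM in WT and 5.7, 5.37 and 4.77 CPM in KO, with Cdc6 the highest at 0.37 ± 0.44 and Tk1 the lowest at −0.49 ± 0.42. In the HP1g line 1 member was higher and 1 lower at an unadjusted p under 0.05 (2.89% and 2.89% of all genes), namely Orc1 and Clspn, DESeq2 called 0 and edgeR called 0.00669% of all genes higher and 0.00% lower. Orc1 was at 0.347, 0.397 and 0.236 CPM in WT and 0.411, 0.899 and 1.24 CPM in KO (1.38 ± 0.48). The groups did not overlap, as held for 10.3% of all genes in this direction, and all are low levels. Clspn was at 2.43, 5.12 and 2.7 CPM in WT and 1.98, 2.12 and 1.94 CPM in KO (−0.73 ± 0.30). For Cdc6, Mcm5, Cdc45, Gins2, Pcna, Rfc4, Pola1, Lig1, Rrm2 and Tyms the log2 fold changes were 0.37, −0.08, −0.23, 0.06, 0.02, −0.03, 0.01, −0.02, 0.07 and −0.07 in the HP1a line and 0.76, 0.20, −0.28, 0.09, 0.01, −0.37, −0.11, 0.06, 0.21 and −0.09 in the HP1g line. The naive libraries of the HP1a line varied with their replicate number. Replicate 1 was the highest of the 3 in both genotypes for 14 members and the lowest in both for 12, as for Pcna above and for Cdt1, at 49.3, 27.7 and 31.9 CPM in WT and 48.2, 26.3 and 27.4 CPM in KO.

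In HP1a Tconv without Treg, no member was called either. This holds for edgeR (0.0773% of all genes higher, 0.0258% lower) and DESeq2, and 1 was lower at an unadjusted p under 0.05 (3.63% of all genes, with 4.90% higher), the flap nuclease gene Fen1, at 71.3, 86.9 and 68.2 CPM in WT and 62.5, 65.1 and 62.5 CPM in KO (−0.25 ± 0.10). The median was −0.05. Rrm2 was at 85.4, 148 and 104 CPM, Cdc6 at 7.87, 16.9 and 10.9 CPM and Mcm5 at 71.6, 111 and 83.6 CPM in KO, with log2 fold changes of −0.10 ± 0.35, −0.13 ± 0.37 and 0.01 ± 0.26. Of all members Pole had the highest value at 0.52 ± 0.34 and Gins3 the lowest at −0.27 ± 0.12, and for Cdc45, Gins2, Pcna, Rfc4, Pola1, Lig1 and Tyms it was 0.17, 0.03, −0.14, −0.09, 0.03, −0.05 and −0.03. Replicate 2 was the highest of the 3 for 38 of 44 members in WT and for as many in KO.

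With Treg, most members had lower levels in KO than in WT cells of the HP1a line, but none reached the threshold. Of 44 members 39 had a negative log2 fold change (50.8% of all genes), the median was −0.39 (−0.01 over all genes), and 10 were lower and 0 higher at an unadjusted p under 0.05 (6.03% and 6.12% of all genes). EdgeR called 0 members, with 0.0431% of all genes called higher and 0.0800% lower, and DESeq2 called 1, Gins1. Gins1 was at 7.04, 3.77 and 6.47 CPM in WT and 2.37, 3.01 and 2.15 CPM in KO (−1.22 ± 0.39, edgeR adjusted p = 0.277). Gins2 had the lowest adjusted p of the members, with 23.2, 21.3 and 26.1 CPM in WT and 12.3, 13 and 14 CPM in KO (−0.86 ± 0.19, edgeR adjusted p = 0.132). Tk1 was at 16.8, 27.3 and 19.1 CPM in KO (−0.93 ± 0.22, edgeR adjusted p = 0.156). Pold1 had the highest value of all members at 0.25 ± 0.30. For Gins1, Gins2 and Tk1 the KO libraries all lay below the WT libraries, which held for 10.5% of all genes. The other representatives had −0.17 ± 0.37 (Rrm2), −0.64 ± 0.37 (Cdc6), −0.41 ± 0.24 (Mcm5), −0.48 ± 0.42 (Cdc45), −0.45 ± 0.22 (Pcna), −0.47 ± 0.18 (Rfc4), −0.06 ± 0.27 (Pola1), −0.54 ± 0.24 (Lig1) and −0.52 ± 0.16 (Tyms).

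This comparison shares the WT libraries with Treg with the Treg effect in HP1a WT, so that the 2 sets of values are not independent. In those libraries the summed level of the members was 3826, 3086 and 2676 CPM, against 2305, 2918 and 2519.8 CPM in KO, and the ranges overlapped. Marker sums of 3 cell types separated the same groups without overlap. The sum of 10 myeloid markers was 26.6, 24.7 and 59.5 CPM in WT and 415, 176 and 532 CPM in KO. Erythroid markers summed to 39.9, 35.3 and 62.4 CPM in WT and 459, 129 and 563 CPM in KO. Without the marker Tfrc the erythroid sums were 4.58, 4.25 and 36.8 CPM in WT and 437, 85.7 and 527 CPM in KO. The T cell markers were lower in KO, as were most members, at 7838, 8201 and 8058 CPM in WT and 7251, 6562 and 6463 CPM in KO. All 3 sums also separated WT from KO in HP1a Tconv without Treg. There myeloid markers summed to 7.01 to 8.63 CPM in WT and 13.3 to 179 CPM in KO. Erythroid markers summed to 32.1 to 34.0 CPM in WT and 49.9 to 613 CPM in KO, or without Tfrc to 2.39 to 4.32 CPM and 26.2 to 578 CPM. T cell markers summed to 7165 to 7597 CPM in WT and 6351 to 6694 CPM in KO. The separation was thus seen in both conditions, but its size differed. The mean myeloid sum of HP1a KO was 87.5 CPM without Treg and 374 CPM with Treg. The part of these markers in the difference of the replication genes was not tested. Tested directly, the Treg effect did not pass the threshold for a difference between the genotypes for any member. The interaction had a median of −0.29 with 37 of 44 negative (51.5% of all genes). For it edgeR called 0 members (0.0814% of all genes higher, 0.0581% lower), DESeq2 called 0, and 4 members had an unadjusted p under 0.05 (4.55% of all genes lower and 5.18% higher), namely Gins2, Tk1, Gins1 and Rpa2, at −0.88 ± 0.25, −1.07 ± 0.36, −1.25 ± 0.50 and −0.70 ± 0.30. The lowest adjusted p was 0.219, that of Gins2. The representatives Cdc6, Mcm5, Cdc45, Gins2, Pcna, Rfc4, Pola1, Lig1, Rrm2 and Tyms had interaction values of −0.50, −0.40, −0.65, −0.88, −0.30, −0.37, −0.08, −0.48, −0.06 and −0.48, and Pold1 had the highest at 0.33.

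**Figure D5:**
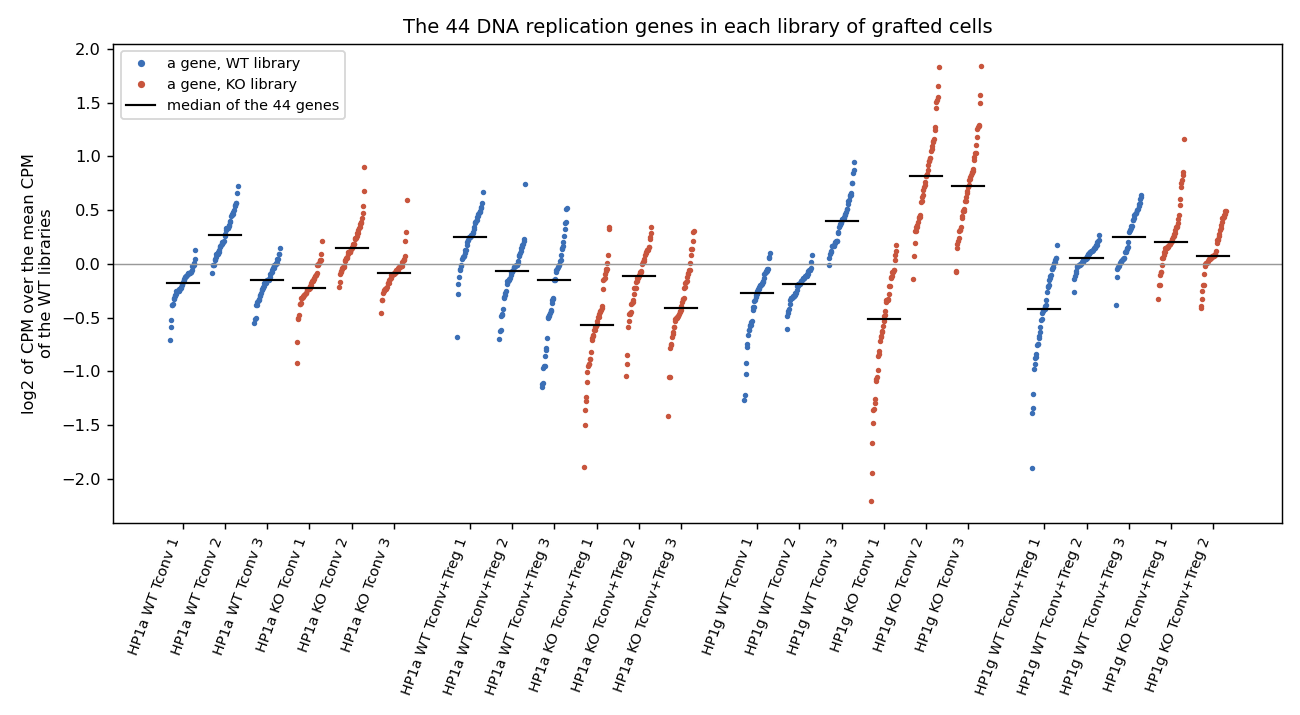
Log2 of the CPM of each of the 44 genes (points, sorted within a library) over the mean CPM of the WT libraries of the same line and condition, for each library of grafted cells, with a bar at the median. In HP1g Tconv the medians of the KO libraries are −0.51, 0.82 and 0.72, and in HP1a Tconv with Treg they are −0.57, −0.11 and −0.41.

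In the HP1g line most differences between KO and WT were positive, again without a call. In Tconv without Treg 42 of 44 members had a positive log2 fold change in KO (53.0% of all genes) with a median of 0.48, but edgeR and DESeq2 called 0 (0.0312% of all genes called higher and 0.0125% lower by edgeR) and 0 had an unadjusted p under 0.05. Rrm2 was at 78.3, 97.6 and 226 CPM in WT and 42.2, 393 and 324 CPM in KO (0.93 ± 0.82). Cdc6 was at 8.2, 12 and 30.0 CPM in WT and 4.34, 47.6 and 47.2 CPM in KO (0.99 ± 0.91). In both genes KO replicates 2 and 3 exceeded all WT libraries and KO replicate 1 lay below all of them. Gins1 had the highest value of all members at 1.36 ± 0.88 and Cdt1 the lowest at −0.08 ± 0.09, and the representatives Mcm5, Cdc45, Gins2, Pcna, Rfc4, Pola1, Lig1 and Tyms had 0.65, 0.91, 0.49, 0.24, 0.46, 0.69, 0.71 and 0.68. Without KO replicate 1 the median was 0.75 and without the erythroid-rich replicate 1 of both genotypes 0.64, and still no member was called.

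With Treg, the HP1g KO group has 2 libraries. EdgeR called 0 members and 0.00% of all genes, DESeq2 called 0 members, 1 was higher at an unadjusted p under 0.05 (7.32% of all genes, with 4.49% lower), and the median of 0.21 became −0.04 without the erythroid-rich libraries and −0.12 with the left-out library. The member at p under 0.05 was Mcm6, at 237, 274 and 302 CPM in WT and 607 and 374 CPM in KO (0.87 ± 0.23, edgeR adjusted p = 0.243). Both KO libraries lay above the WT libraries, which held for 15.8% of all genes. Replicate 1, which is rich in erythroid transcripts, was the higher. Cdt1 had the lowest value at −0.28 ± 0.16, and Cdc6, Mcm5, Cdc45, Gins2, Pcna, Rfc4, Pola1, Lig1, Rrm2 and Tyms had 0.19, 0.15, 0.18, 0.64, −0.09, 0.34, −0.02, 0.40, 0.23 and 0.35. The interaction of genotype and Treg in the HP1g line gave 0 calls among the members by edgeR (0.00% of all genes) and 0 by DESeq2. At an unadjusted p under 0.05 it gave 0 members (2.15% of all genes higher and 1.59% lower). Its median was −0.25, or −0.69 without the erythroid-rich libraries and 0.03 with the replicate block. Its values were −0.81, −0.50, −0.73, 0.15, −0.33, −0.12, −0.72, −0.32, −0.70 and −0.34 for Cdc6, Mcm5, Cdc45, Gins2, Pcna, Rfc4, Pola1, Lig1, Rrm2 and Tyms, with Gins1 the lowest at −0.84 and Rpa2 the highest at 0.28. The Treg effect also did not pass the threshold for a difference between WT cells of the lines for any member. Here edgeR called 0 (0.701% of all genes higher, 0.858% lower) and DESeq2 0, 2 members, Gins2 and Rpa2, had an unadjusted p under 0.05 (7.61% of all genes higher and 8.06% lower), at 0.95 ± 0.41 and 0.72 ± 0.30, and the median was 0.20, or 0.17 without the erythroid-rich libraries. Between the lines Tk1 had the highest value at 1.21 ± 0.57 and Pold1 the lowest at −0.49 ± 0.35, and Cdc6, Mcm5, Cdc45, Gins2, Pcna, Rfc4, Pola1, Lig1, Rrm2 and Tyms had 0.45, 0.36, 0.20, 0.95, 0.12, 0.54, −0.22, 0.74, 0.07 and 0.53. Each line has its own grafts and controls, and by the paper Treg did not effectively repress HP1g WT cells. Line, experiment and degree of repression thus cannot be told apart.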

How the data were processed

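RNA of CD4+ T cells was amplified with SMART-Seq v4, which keeps no strand, and sequenced in pairs. The authors aligned reads to GRCm39 with STAR through the nf-core/rnaseq workflow and quantified Ensembl genes with Salmon. The deposited table holds estimated counts per gene, not normalised, of which 82.8% are whole. The columns with no sample number 0. Counts were rounded and tested with edgeR 4.0.16 in R 4.3.3 (TMM, filterByExpr, robust quasi-likelihood fit, Benjamini-Hochberg over all genes tested), with only the libraries of the groups compared, in 17 comparisons. Calls required an adjusted p under 0.05 and a log2 fold change above 1 in size. The library that the study left out on GC content, exonic share and coverage was left out here. The 44 members and all lists were chosen with earlier results of these data known. Any member could be named, with values in each comparison for 10 representatives (Cdc6, Mcm5, Cdc45, Gins2, Pcna, Rfc4, Pola1, Lig1, Rrm2, Tyms) and other members or list genes were named for the largest change or the lowest p, some after their values were seen. The 34 pairs of replicates held no identical libraries and differed by more than sampling noise (chi-square per gene of at least 8.41). Replicate numbers were taken to pair libraries where at least 3 pairs existed and each correlated over 0.1. This held only for KO against WT in HP1a naive cells (0.287 to 0.654) and HP1g Tconv (0.112 to 0.431). Such pairing was seen in the data and is not stated by the labels. KO against WT in HP1g Tconv with Treg had only 2 pairs, at 0.197 to 0.38. Fits were tested on simulated data. Alternatives were DESeq2 1.42.0, RLE size factors, no filter, no fold threshold, all libraries of the line, the replicate block, each library left out in turn, the left-out library included and, chosen after seeing the data, the 4 erythroid-rich libraries left out. Promoter sequences came from GRCm39. Without strand, reads of overlapping genes cannot be told apart. Floors cover counting error only. The ± values come from the quasi-likelihood fit and so include the spread between libraries.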

Additional observations from a re-analysis of the deposited data

Results flagged for a closer look

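Among 35 further replication genes, 25 G1/S regulators and 15 mitosis genes, 2 differed in their response to Treg between WT cells of the lines. Both passed the adjusted p of the test of that difference with a lower value. Of all 17127 genes tested, 0.987% passed it with a lower value and 0.771% with a higher one. Ccnd3, which encodes cyclin D3 and promotes entry into S phase, was at 607, 654 and 715 CPM in HP1a WT Tconv and at 277, 266 and 219 CPM with Treg. In HP1g WT it was at 589, 542 and 611 CPM and 393, 594 and 487 CPM, so that the difference between the log2 fold changes was −1.13 ± 0.21 (edgeR adjusted p = 0.0232). Rrm2b, a small subunit of ribonucleotide reductase that is used for DNA repair outside S phase, was at 36.8, 29.5 and 36.3 CPM in HP1a WT Tconv and at 16.5, 16.9 and 17.4 CPM with Treg. In HP1g WT the values were 36.8, 36.5 and 33.7 CPM and 39, 46.3 and 28.5 CPM, a difference of −1.09 ± 0.23 (edgeR adjusted p = 0.0398). In both genes the 3 HP1a libraries with Treg lay below those without (18.1% of all genes), and the HP1g groups overlapped. Line, experiment and the degree of repression by Treg cannot be told apart.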

How the results depend on the processing

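With no threshold on the fold change, 34 members instead of 18 passed in HP1a WT Tconv against naive cells, 33 instead of 15 in HP1a KO, and 3 instead of 1 for the Treg effect in HP1a WT. With no filter on low counts 15 instead of 23 were called in HP1g KO Tconv against naive cells. For the Treg effect in HP1a WT, DESeq2 called 2 and a fit over all libraries of the line 2. For KO against WT in HP1a Tconv with Treg each of these called 1, Gins1. The cause was not tested. Leaving out each library in turn gave 13 to 19 calls in HP1a WT Tconv against naive cells, 14 to 16 in HP1a KO, 14 to 20 in HP1g WT and 16 to 31 in HP1g KO (31 without Tconv replicate 1), and, for Treg in HP1a WT, 0 to 2. There the count was 0 without Tconv replicate 1 or 3 or Tconv with Treg replicate 1 or 2, and 2 without Tconv replicate 2. It gave 0 to 1 for KO against WT in HP1g Tconv with Treg (Mcm6, without KO replicate 2, where the lone KO library is assumed to vary like the WT libraries) and 0 in the other comparisons. With the replicate block, 17, 15, 18 and 18 members were called in Tconv against naive cells of HP1a WT, HP1a KO, HP1g WT and HP1g KO, 1 for the Treg effect in HP1a WT and 0 elsewhere. The left-out library had a summed member level of 5232 CPM. RLE size factors moved no count by over 1.5 times. Leaving out the 4 erythroid-rich libraries was chosen after seeing the data.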
